A study of Mus musculus with 3 samples.

Results

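The genes described here are the insulin-like growth factors and their receptors and binding proteins, as measured in the choroid plexus epithelium (CPE) of the adult mouse, the cell layer that secretes cerebrospinal fluid into the brain ventricles. The members were the 10 genes Igf1, Igf2, Igf1r, Igf2r and Igfbp2 to Igfbp7, taken as every array probe that carries one of these names in the scanner tables. They were measured by 20 probes, out of 41174 probes for 28599 named genes and transcripts. CPE was cut out by laser from frozen brain sections of 3 healthy C57BL/6 mice with no treatment, and its amplified RNA was labelled red (Cy5) on 1 two-colour Agilent array per mouse. The same RNA from the retinal pigment epithelium and choroid (RPE/choroid) of C57BL/6 mice was labelled green (Cy3) on all arrays as a common reference. All ratios below are CPE over that reference on a log2 scale, so they place CPE against an eye tissue and not against other brain cells. The dyes were not swapped, which leaves any bias of a probe toward a dye in its ratio, and the reference is 1 RNA, so the errors cover the 3 mice and the arrays but not the spread of RPE/choroid between animals.

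Insulin-like growth factors are secreted peptides related to insulin. Igf1 and Igf2 signal for growth and survival through the receptor kinase encoded by Igf1r, while the product of Igf2r, which also sorts enzymes tagged with mannose 6-phosphate to lysosomes, takes up Igf2 and delivers it for breakdown. The binding proteins encoded by Igfbp2 to Igfbp6 hold the peptides in body fluids and tissues and set how much reaches the receptors, and that of Igfbp7 binds them weakly. Igf2 is an imprinted gene, and in the adult brain the choroid plexus and the meninges are its known sources.

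The members fell in both directions from the reference. Igf2 and Igfbp2 were among the probes with the highest CPE over reference ratios of the whole array, and Igf2r was 2.92-fold higher. By the brightest probe of each gene, Igfbp5, Igf1 and Igfbp6 were lower and the other 4 genes did not pass. The second Igfbp5 probe did not pass. A probe was called when its limma adjusted p was under 0.05 and its change was at least 2-fold. Of the 20 member probes, 18 had a signal well above background in CPE or in the reference on each of the 3 arrays and were tested: 4 were higher in CPE, 4 were lower and 10 did not pass. Over all 25838 probes tested, 17.3% were called, 7.09% as higher and 10.2% as lower. The median log2 ratio of the tested member probes was -0.08, and that of all tested probes was -0.041.

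The sequence before the start site is shown for Igf2 and Igfbp2, the genes with the highest ratios, and for Igfbp5. By its brightest probe Igfbp5 had the lowest ratio, and it lies beside Igfbp2. Each stretch holds the 250 bases that precede a RefSeq start in build GRCm38.p6, read 5′ to 3′ on the strand of the gene. Matches to GGGCGG, the GC box, are in capitals, on either strand, and TATAAA, the TATA box, and TAATCC, a core that OTX and CRX homeobox factors bind, were searched in the same way. No matches overlap. The Igf2 stretch lies at chr7:142657497-142657746 on the minus strand and is the most downstream of the 4 start windows of the gene. The Igfbp2 stretch lies at chr1:72824230-72824479 on the plus strand and is the upstream one of 2, and the Igfbp5 stretch lies at chr1:72874866-72875115 on the minus strand.
Igf2: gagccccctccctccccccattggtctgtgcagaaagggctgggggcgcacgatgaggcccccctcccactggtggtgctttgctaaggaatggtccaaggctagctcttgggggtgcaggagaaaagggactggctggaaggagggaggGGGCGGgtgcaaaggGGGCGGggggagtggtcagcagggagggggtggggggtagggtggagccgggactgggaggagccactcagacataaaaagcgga
Igfbp2: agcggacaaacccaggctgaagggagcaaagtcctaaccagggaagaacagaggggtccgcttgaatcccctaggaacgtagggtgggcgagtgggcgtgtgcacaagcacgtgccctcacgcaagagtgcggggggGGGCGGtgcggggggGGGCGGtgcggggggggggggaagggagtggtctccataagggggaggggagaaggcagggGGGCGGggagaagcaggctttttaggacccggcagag
Igfbp5: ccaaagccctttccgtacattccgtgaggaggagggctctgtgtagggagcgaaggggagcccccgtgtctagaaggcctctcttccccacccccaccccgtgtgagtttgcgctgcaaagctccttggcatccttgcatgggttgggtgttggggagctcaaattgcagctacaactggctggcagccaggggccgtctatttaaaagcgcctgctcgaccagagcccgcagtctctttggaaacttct
The Igf2 stretch held 2 GC boxes, which begin 100 and 85 bases before the start, and the Igfbp2 stretch held 3, which begin 113, 98 and 37 bases before it. The Igfbp5 stretch held no match to the 3 motifs. The Igf2 and Igfbp2 windows shown hold the most GC boxes of their gene. The Igf2 window at chr7:142658805 held 1, those at chr7:142661272 and chr7:142666817 held 0, and the other Igfbp2 window held 0. GC boxes were also found before Igfbp7 (4), Igf2r (3) and Igf1r (2), whose brightest probes had log2 ratios of 0.54, 1.55 and 0.30. Over the 14 start windows of the 10 members, 6 held a GC box and 2, those of Igfbp4 and Igfbp6, held TATAAA. Of 32851 such stretches in the RefSeq table, 32.7% held a GC box, 12.4% TATAAA and 6.25% TAATCC. These matches are letters in a window and no measurement of binding.

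Igf2, the growth factor abundant in the fetus, gave very bright CPE spots. At its probe A_51_P516833 (mm8 chr7:142460600-142460659), the intensity in CPE was 33727, 37511 and 47153 scanner units in mouse 1, 2 and 3, and the reference on the same arrays gave 802, 1077 and 1053. All CPE values lay far above all reference values. Units here and below are from before loess, and the channels differ in brightness. Ptpn11, for example, gave 12130, 8223 and 9484 units in CPE against 5501, 5609 and 5338, yet a log2 ratio of -0.15. The share of all probes without overlap was not computed. At A_51_P516833 the log2 ratios of the 3 mice after loess were 4.24, 4.37 and 4.78. Their mean was 4.46 ± 0.17 (SE, n = 3) or 22.0-fold (limma adjusted p = 6.8e-06), the 6th highest ratio of all probes tested. The other probe, A_51_P516826 (mm8 chr7:142460185-142460245), was at the ceiling of the scanner in CPE on every array, at 65393, 65393 and 65395 units, against 2194, 3711 and 2878 in the reference. Its red signal is therefore only a bound, and CPE was at least 11.2-fold higher (limma adjusted p = 1.28e-05). That p does not measure the spread of CPE between mice, because the ceiling held all CPE values of this probe. The lower ratio of the second probe, 3.49 against 4.46, was measured with that ceiling in place.

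Igf1, the growth factor that mediates many effects of growth hormone, went the other way. Its brightest probe, A_51_P147942 (mm8 chr10:87360570-87360629), gave 349, 321 and 719 units in CPE and 1272, 1314 and 1233 in the reference, without overlap. The log2 ratios were -2.66, -2.27 and -2.11, and CPE was 5.09-fold lower (mean -2.35 ± 0.17 SE, n = 3, limma adjusted p = 6.46e-05). A second probe, A_52_P536434, which lies 17098 bases upstream, was also lower, by 2.38-fold (-1.25 ± 0.17 SE, adjusted p = 0.00111), but with median centring it gave -0.82 and did not pass. The third, A_52_P306327, was well above background in CPE on only 1 array and did not pass (-0.30 ± 0.15 SE, adjusted p = 0.159). In bulk RNA, fewer cells that express a gene and less RNA of it per cell cannot be told apart.

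**Figure D1:**
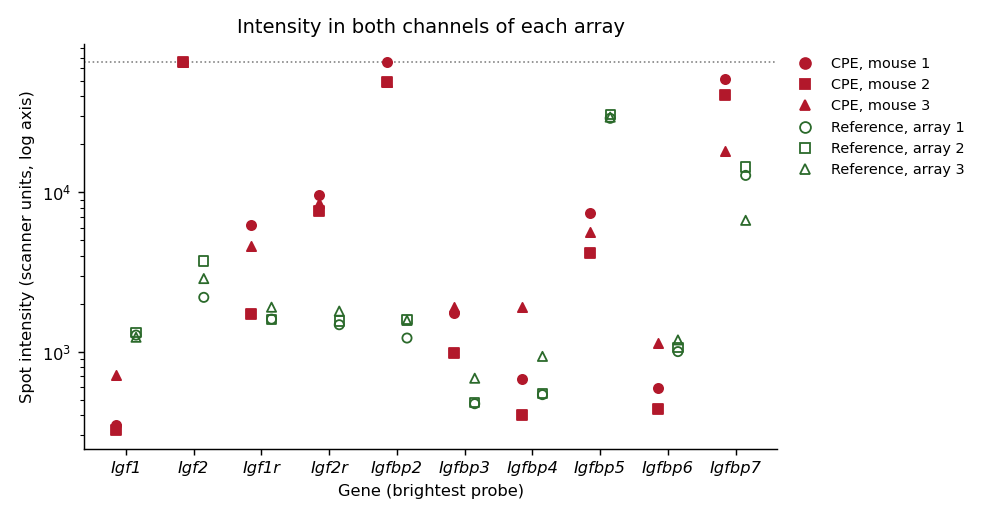
Spot intensity in scanner units before normalization (log axis) of the brightest probe of each member. Filled symbols are CPE of mouse 1, 2 and 3, open symbols are the reference on the same array, and the dotted line is the scanner ceiling. Igf2 sits at the ceiling in all mice and Igfbp2 in mouse 1, while the reference is brighter than CPE on every array for Igf1, Igfbp5 and Igfbp6.

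The receptors differed from each other. Igf2r, at A_51_P125467 (mm8 chr17:12525901-12525959), gave 9677, 7625 and 8550 units in CPE and 1477, 1558 and 1799 in the reference, again without overlap. The log2 ratios of 1.57, 1.65 and 1.42 had a mean of 1.55 ± 0.15 (SE, n = 3), or 2.92-fold higher in CPE (limma adjusted p = 0.000259). Its log2 level in CPE had an SD of 0.04 between the mice, the smallest of the member probes. The median SD was 0.43 over the member probes above background in both channels and 0.34 over all such probes.

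Igf1r, the signalling receptor, did not pass at any of its 4 probes. At the brightest, A_51_P318365 (mm8 chr7:68100183-68100242), CPE gave 6225, 1723 and 4621 units and the reference 1602, 1590 and 1903, and mouse 2 lay within the range of the reference. The log2 ratios were 0.85, -0.35 and 0.41, so the mice did not share a direction, and the mean of 0.30 ± 0.23 (SE, n = 3, limma adjusted p = 0.347) had a 95% interval from -0.24 to 0.84. A difference of 2-fold in either direction lies outside that interval, which holds for loess only. With median centring the mean was 0.98 (limma adjusted p = 0.0674), close to 2-fold, and it did not pass. The next probe, A_51_P474538, gave 0.46, -0.63 and 0.18, with a mean of 0.00, or 0.66 with median centring. Mouse 2 was the lowest at both bright probes, and without it the first gave 0.63 (adjusted p = 0.0483), still under 2-fold. The 2 dim probes, A_52_P634111 and A_52_P668647, gave -0.21 (adjusted p = 0.299) and -0.46 (adjusted p = 0.0639), and neither was above background in CPE on all arrays.

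Among the binding proteins, Igfbp2 and Igfbp5 stood at opposite ends by their brightest probes. Igfbp2, whose product is a main binding protein of cerebrospinal fluid, gave 65394, 49003 and 49402 units in CPE at A_51_P423308 (mm8 chr1:72785310-72785369), and 1219, 1598 and 1572 in the reference. The log2 ratios of 4.50, 4.10 and 4.21 had a mean of 4.27 ± 0.16 (SE, n = 3), or 19.3-fold higher in CPE (limma adjusted p = 6.8e-06), the 14th highest of all tested probes. The spot of mouse 1 was saturated, so its value is a lower limit within that mean, and with saturated spots left out the mean was 4.15.

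Igfbp5, a binding protein that attaches to extracellular matrix, gave 7398, 4166 and 5650 units in CPE at A_52_P281702 (mm8 chr1:72791462-72791521) against 29150, 30640 and 29657 in the reference. The log2 ratios were -3.32, -3.80 and -3.32, and CPE was 11.1-fold lower (mean -3.48 ± 0.17 SE, n = 3, limma adjusted p = 1.28e-05). This was the 137th lowest ratio of all tested probes. The spot was nonetheless bright in CPE, at the 96.9th percentile of all probes, with the reference at the 99.88th. The second Igfbp5 probe, A_51_P204153 (mm8 chr1:72793999-72794058), gave another result. It measured 820, 582 and 752 units in CPE and 602, 500 and 464 in the reference, and its log2 ratios of -0.29, 0.15 and -0.33 did not pass (-0.16 ± 0.17 SE, adjusted p = 0.500). With median centring in place of loess this ratio was 0.35, while the main probe stayed lower (-2.60).

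Igfbp6, whose product prefers Igf2 to Igf1, gave 588, 436 and 1132 units in CPE and 1002, 1058 and 1186 in the reference at A_51_P374571 (mm8 chr15:101977366-101977426). Before normalization the reference was brighter than CPE on every array. Across arrays the values overlapped, and array 3 was the brightest in both channels. The log2 ratios of -1.58, -1.50 and -1.16 had 1 sign, and CPE was 2.66-fold lower (mean -1.41 ± 0.16 SE, n = 3, limma adjusted p = 0.000535). With median centring the ratio was -0.91 and no longer passed.

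Igfbp3, the main carrier of the growth factors in blood, and Igfbp7 leaned toward CPE but stayed under 2-fold. The brightest Igfbp3 probe, A_52_P253179 (mm8 chr11:7106594-7106653), gave 1748, 988 and 1921 units in CPE and 472, 481 and 682 in the reference, without overlap. Its log2 ratios of 1.12, 0.88 and 0.67 had a mean of 0.89 ± 0.16 (SE, n = 3, limma adjusted p = 0.00430) and a 95% interval from 0.52 to 1.27. Without mouse 3 the mean was 1.00 and passed, as it did with median centring (1.42). The other 2 Igfbp3 probes, A_51_P228472 and A_52_P851352, met that signal limit in neither tissue and were not tested. Igfbp7, at A_51_P472292 (mm8 chr5:78424105-78424164), was bright in both tissues, with 51547, 40652 and 18178 units in CPE and 12778, 14420 and 6677 in the reference. All CPE values were above all reference values, but in units from before loess this is not itself a difference between the tissues. After loess the Igfbp7 log2 ratios were 0.61, 0.43 and 0.57, with a mean of 0.54 ± 0.15 (SE, n = 3, adjusted p = 0.025) and a 95% interval from 0.19 to 0.89. With median centring it was 1.50 and passed.

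Igfbp4, which holds back growth factor until a protease cuts it, did not pass at either probe. Its brightest, A_52_P257502 (mm8 chr11:98868110-98868169), gave 670, 403 and 1904 units in CPE and 538, 548 and 935 in the reference, so the groups overlapped. The log2 ratios of -0.37, -0.48 and 0.13 had a mean of -0.24 ± 0.18 (SE, n = 3, limma adjusted p = 0.324) and a 95% interval from -0.65 to 0.17, and with median centring the mean was 0.18. The other probe, A_51_P398971, gave 0.79, -0.30 and 0.49, and as at Igf1r mouse 2 was the lowest.

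**Figure D2:**
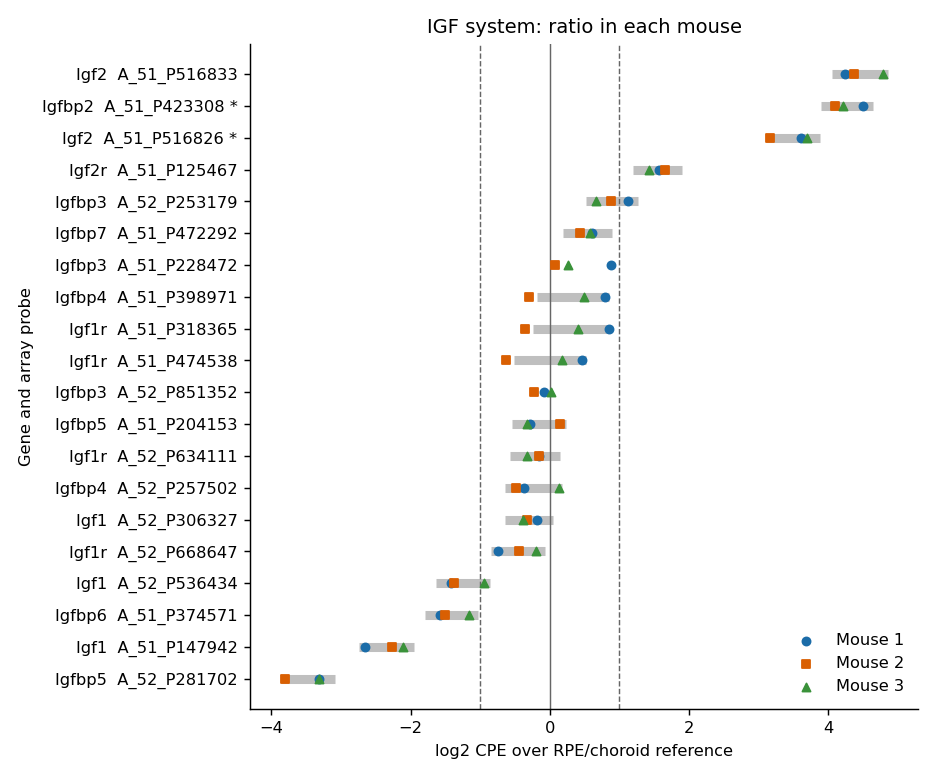
Log2 CPE over reference of the 20 member probes in mouse 1, 2 and 3 (symbols), with the 95% limma interval of the mean as a grey bar for the 18 tested probes and dashed lines at a 2-fold change. Asterisks mark probes with a saturated CPE spot. The 3 probes of Igf2 and Igfbp2 lie between 3.17 and 4.78, apart from all others, and the main Igfbp5 probe lies at or below -3.32.

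Ordered by the ratio of the brightest probe, the genes ran from Igfbp2 and Igf2 through Igf2r, Igfbp3, Igfbp7, Igf1r, Igfbp4, Igfbp6 and Igf1 to Igfbp5. Neighbours in this order differed by more than the SD of their difference over the 3 mice, except for Igfbp7 and Igf1r (0.24 ± 0.51) and Igf1r and Igfbp4 (0.54 ± 0.59). The order was set by the same ratios, so each mean difference is positive by construction. That SD also leaves out differences between probes, so it does not settle the order of the genes. The order of Igfbp2 and Igf2 is not settled, because the saturated Igf2 probe gave 3.49 and the unsaturated one 4.46, on either side of 4.27 for Igfbp2. The low end of the order also depends on the probe. Igfbp5 at A_51_P204153 gave -0.16, above Igfbp4 at -0.24, and Igf1 at A_52_P536434 gave -1.25, above Igfbp6 at -1.41. The ratio had 1 sign in all 3 mice at 14 of the 20 probes, but the share over all probes was not computed, so this count describes the members only. The median SD of the ratio between mice was 0.27 over the 18 tested member probes and 0.26 over all tested probes.

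The intensity in CPE alone placed 8 of the 20 member probes in the high class, above the 90th percentile of all probes, which by construction holds 10% of the array. The 8 were both Igf2 probes, both bright Igf1r probes and the probes of Igfbp2, Igfbp7 and Igf2r, and the Igfbp5 probe with the lowest ratio. A further 7 were moderate (50th to 90th percentile) and 5 low (10th to 50th), and no member lay below the 10th percentile by its mean over the mice. The high class here rests on intensity, which also depends on the probe, so it does not rank genes by the amount of their RNA. Of the 20 probes, 15 were well above background in CPE on all arrays and 18 in the reference. When only probes above background in CPE were ranked, 6 probes changed class. The 2 bright Igf1r probes fell to the moderate class, and 6 probes remained high. Igf1 at A_51_P147942 and A_52_P536434, Igfbp4 at A_51_P398971 and Igfbp5 at A_51_P204153 fell from moderate to low.

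**Figure D3:**
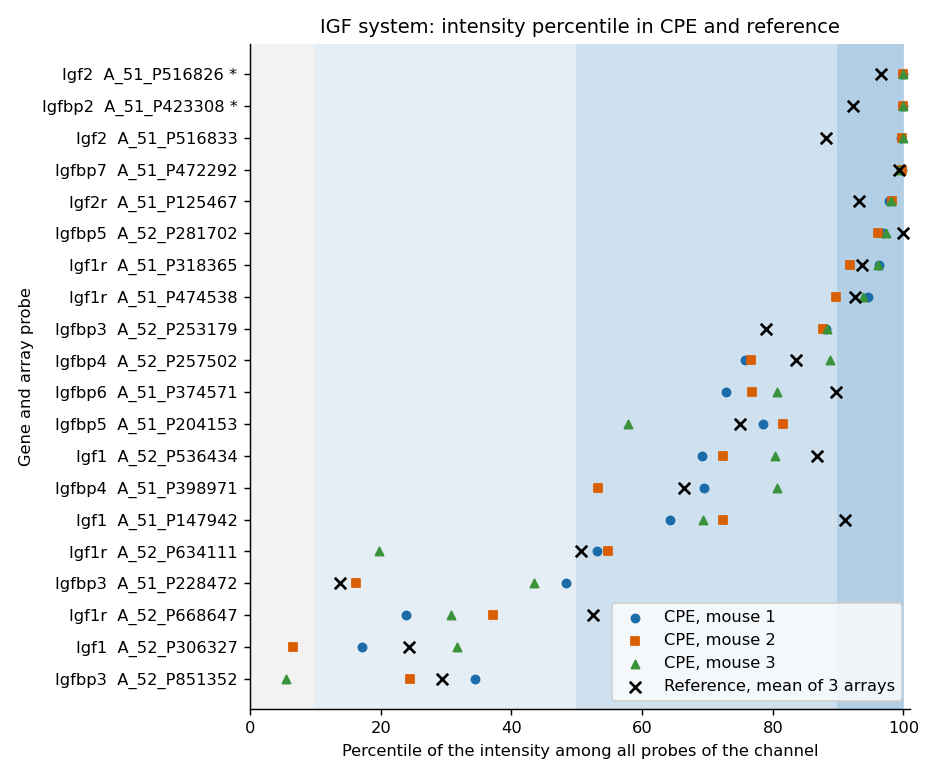
Percentile of the intensity of each member probe among all probes of its channel, for CPE of mouse 1, 2 and 3 (coloured symbols) and the mean of the reference (crosses). Shades mark the very low, low, moderate and high classes with limits at 10, 50 and 90. Igf2, Igfbp2 and Igfbp7 lie near 100 in CPE, and the Igfbp5 probe A_52_P281702 is high in both tissues but higher in the reference (99.88 against 96.9).

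Several probes per gene were present for 6 members, and in some they disagreed beyond the spread between mice. At Igfbp5 the upstream probe exceeded the downstream one by 3.03, 3.95 and 2.99 log2 units in the 3 mice (3.32 ± 0.54 SD), although they lie only 2537 bases apart on mm8. At Igf1 the probe nearest the 3′ end was the lowest, and the one 17098 bases upstream, which was also above background in CPE on all arrays, was higher by 1.10 ± 0.19 (SD, n = 3). No difference is given for the farthest Igf1 probe and the other 2 Igfbp3 probes, which were too dim in CPE, or for Igf2, where 1 of the probes was at the scanner ceiling. The bright Igf1r probes differed by 0.30 ± 0.08, and the upstream Igfbp4 probe exceeded the downstream one by 0.57 ± 0.52. Whether probes of 1 gene report different transcripts was not tested.

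**Figure D4:**
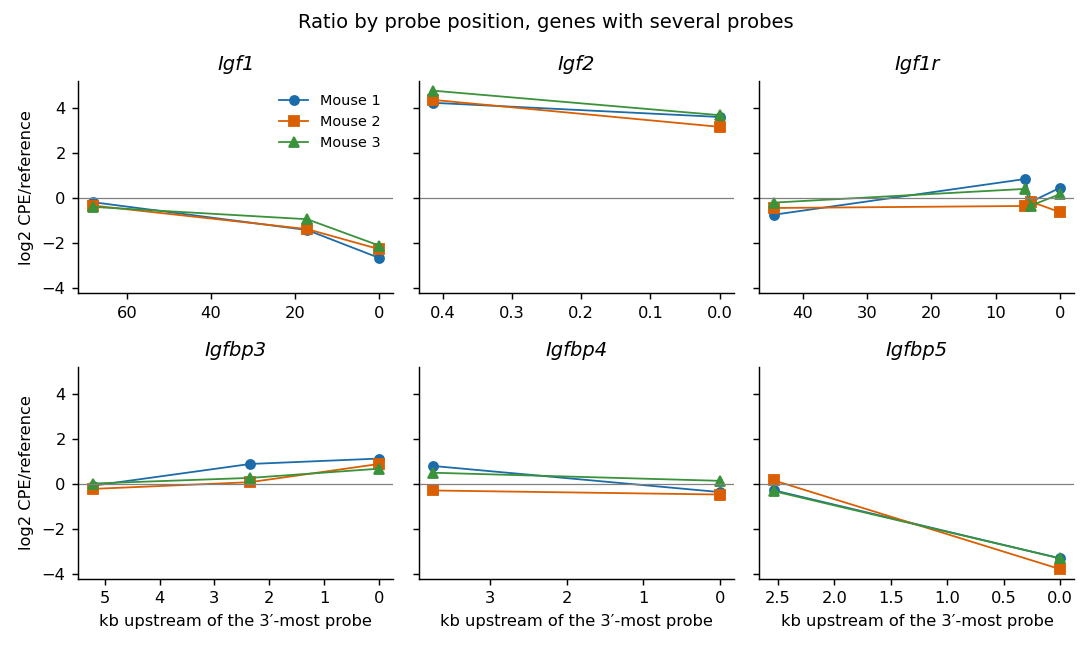
Log2 CPE over reference against distance in kb upstream of the 3′-most probe (genomic distance, introns included) for the 6 members with several probes, with 1 line per mouse. The Igfbp5 lines climb from below -3.3 at the 3′-most probe to near 0 at 2.5 kb, and the Igf2 lines stay above 3, with the 3′-most Igf2 probe saturated in CPE. The farthest Igf1 and Igfbp3 probes are near background in CPE.

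Igfbp2 and Igfbp5 are neighbours on chromosome 1 and are read from opposite strands. Their probes lie 6092 and 8629 bases apart on mm8, with log2 ratios of 4.27 at Igfbp2 and -3.48 at the nearer Igfbp5 probe. Next to Igf2, the insulin gene Ins2 was higher in CPE at 1 of its 2 tested probes (1.07 ± 0.17 SE, limma adjusted p = 0.00262). The imprinted non-coding gene H19, also beside Igf2, did not pass (-0.34 ± 0.18 SE, adjusted p = 0.180) and was above background in CPE on 1 array. The neighbour of Igfbp3, Igfbp1, did not pass (-0.13 ± 0.18 SE, adjusted p = 0.612) and was above background in CPE on 1 array.

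Of 100 further genes listed for the pathway, 98 were on the array and 88 were tested by their brightest probe: 13 were higher in CPE, 12 lower and 63 did not pass. Over all 18280 genes tested in this way, 18.9% were called, 7.94% as higher and 11.0% as lower. The median log2 ratio was -0.02 for the pathway genes and -0.04 for all genes. Centring each array on its median in place of loess turned the counts to 23 higher and 7 lower.

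In the rest of the family, 6 of 10 genes were tested. Ins2 was higher, as was Igfbpl1, which encodes a protein resembling the binding proteins (1.20 ± 0.33 SE, limma adjusted p = 0.0229). The Igfbpl1 ratios were 1.72, 1.83 and 0.06, so mouse 3 did not show the difference, and the call was lost without mouse 1 (0.95), without mouse 2 (0.89) and with the scanner's own ratio (2.49, adjusted p = 0.0664). The call of Ins2, made at 1 of its 2 tested probes, was lost without mouse 1 (0.95). Insl6, a relaxin-like peptide gene, was lower (-1.41 ± 0.18 SE, adjusted p = 0.000894), and was above background in CPE on only 2 arrays. The insulin receptor gene Insr (-0.95 ± 0.18 SE, adjusted p = 0.00518), Ins1 (0.52) and Igfbp1 did not pass. Igfals, Insrr and Rln1 were not tested because of low signal, and Insl3 was not found by name on the array.

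Inside the cell, the receptor hands its signal to docking proteins and on to the kinase cascades. Of 13 tested substrates and adaptors, 2 were higher: Grb14, an adaptor that binds insulin-type receptors (1.56 ± 0.28 SE, limma adjusted p = 0.00389), and Irs1, a docking protein (1.05 ± 0.16 SE, adjusted p = 0.00202), whose call was lost without mouse 1 (0.96). The other 11 did not pass by their brightest probe, and Irs1 passed at 1 of its 2 tested probes. Of 25 genes of the PI3K, Akt and mTOR branch, 4 were higher and 3 lower. The highest were Gsk3a (1.60 ± 0.19 SE), a kinase that Akt inhibits, and Pik3r2 (1.19 ± 0.19 SE), a regulatory subunit of PI3K. Inppl1, a lipid phosphatase gene, was at 1.12. The lower ones included Gsk3b, the close relative of Gsk3a, at -1.41 ± 0.23 SE (adjusted p = 0.00266), and Rps6kb1, a kinase of the mTOR branch, at -1.13 ± 0.17 SE. Gsk3b was lower at 1 of its 2 tested probes and Rps6kb1 at 1 of 3. Among 10 Ras and MAP kinase genes, Hras (1.41 ± 0.16 SE) and Map2k2 (1.03 ± 0.15 SE) were higher, and Map2k1, which encodes the sister kinase of Map2k2, was lower (-1.43 ± 0.18 SE, adjusted p = 0.000740). With median centring Gsk3b (-0.92), Rps6kb1 (-0.68) and Map2k1 (-0.83) no longer passed, and Map2k2 lost its call without mouse 1 (0.98), as Rps6kb1 did without mouse 2 (-0.98).

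Outside the cell, proteases and their inhibitors control how long the binding proteins last. Of 12 tested, 3 passed and were lower in CPE: Htra1 (-2.74 ± 0.17 SE, limma adjusted p = 3.74e-05) and Htra3 (-1.07 ± 0.17 SE), which are secreted serine proteases, and Timp3, an inhibitor of metalloproteases (-2.05 ± 0.27 SE, adjusted p = 0.00109). Htra3 was lower at 1 of its 2 tested probes. It did not pass with median centring (-0.71), with no background correction (-0.91) or without mouse 3 (-0.90). Pappa, the protease that cuts Igfbp4, was at -0.09 and did not pass, and was above background in CPE on only 1 array. Of 8 genes for other proteins with the domain of the binding proteins, 4 passed and were lower, namely Crim1 (-3.54 ± 0.17 SE, adjusted p = 1.23e-05), Ctgf (-2.57 ± 0.16 SE), Cyr61 (-1.44 ± 0.18 SE) and Wisp1 (-1.40 ± 0.16 SE). Among 7 mannose 6-phosphate partners of Igf2r, Gga1, a sorting adaptor gene, was higher (1.44 ± 0.23 SE, adjusted p = 0.00222), and M6pr, the smaller receptor of that kind, was at 0.26 and did not pass.

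The last list joined genes for proteins that bind Igf2 mRNA or regulate the locus with imprinted genes. Of 7 tested, 2 passed and were higher, both imprinted growth regulators. Cdkn1c, a brake on the cell cycle, gave 15537, 11118 and 14089 units in CPE against 1345, 1484 and 1571 in the reference, and was 4.99-fold higher (2.32 ± 0.15 SE, limma adjusted p = 3.94e-05). Plagl1, a zinc finger factor, was 2.73-fold higher (1.45 ± 0.16 SE, adjusted p = 0.000417). The imprinted genes H19 (-0.34) and Dlk1 (0.09) did not pass, and Phlda2 was not tested. The genes for the mRNA-binding proteins Igf2bp1 (-0.86) and Igf2bp2 (-0.14) did not pass.

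**Figure D5:**
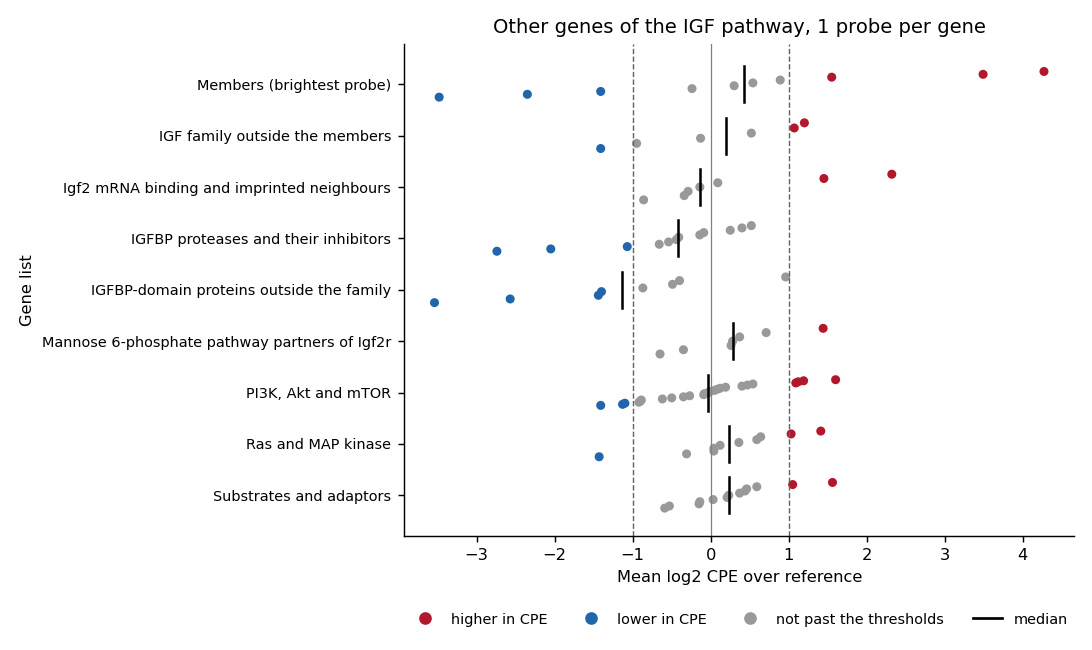
Mean log2 CPE over reference of the members and of the other pathway genes by list, 1 probe per gene. Points are genes, coloured by call, black bars are list medians and dashed lines mark a 2-fold change. The members span a range from -3.48 to 4.27, and among the other lists Crim1 at -3.54 is the lowest point and Cdkn1c at 2.32 the highest.

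Markers of cell types also differed between CPE and the reference. Of 12 CPE markers on the array, 10 were higher in CPE (median 2.90), with summed intensities of 335542 to 432926 against 32715 to 39265 in the reference. Of 10 markers of stroma and meninges, 8 were lower (median -1.63), with sums of 27389 to 43201 in CPE and 83304 to 102661 in the reference, so both tissues gave signal and the reference gave more. Of 9 RPE and melanocyte markers, 8 were lower, with sums of 6195 to 11568 against 156010 to 184115, and Tyr was not above background in CPE on any array. Of 6 macrophage markers, 5 were lower, with sums of 10701 to 14465 against 40031 to 46408. Markers of ependyma, the ciliated lining of the ventricles, were higher in 4 of 4 tested (median 2.84), with sums of 14076 to 21063 in CPE and 834 to 1581 in the reference. Photoreceptor markers were lower in 6 of 6 (median -4.88), with sums of 5260 to 8767 against 110785 to 125135. Lower calls were also made for 3 of 6 neuron, 2 of 2 red blood cell and 2 of 6 smooth muscle and pericyte markers. Endothelium, with 8 markers, and astrocytes, with 4, each had 1 higher and 1 lower. The higher ratios of Igf2 and Igfbp2 have the sign of the CPE and ependyma lists. Those of the called probes of Igf1, Igfbp5 and Igfbp6 have the sign of the lists that were lower. Many other probes share these signs, and the part of other cell types in the member ratios was not tested. The arrays also differed in brightness, with 58.5%, 46.0% and 85.6% of probes well above background in CPE for mouse 1, 2 and 3. Arrays 1 and 3 were scanned on the same day and array 2 on another, so scan day and mouse 2 cannot be told apart. Without mouse 2 the same number of member probes passed (8: 4 higher and 4 lower).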

How the data were processed

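The mouse samples form 1 group of 3 mice, with 1 array each. The authors scanned the arrays with Agilent Feature Extraction 9.5.3.1, and the deposited scanner tables hold the intensity of each spot in both channels, its background, saturation and background flags, plus a processed log10 ratio of red to green per the file headers, which served only as an alternative. A deposited table of the series holds log2 CPE levels, which the authors normalized with Aquantile in limma (R 2.14.0). It was used only as an alternative.

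Control spots and spots marked as outliers were left out. Intensities were corrected with normexp (offset 50), normalized within arrays by loess, averaged per probe and tested against 0 with lmFit and eBayes (limma 3.58.1, R 4.3.3), with Benjamini-Hochberg adjustment over 25838 probes. The thresholds were 0.05 for the adjusted p and a 2-fold difference. Classes came from Aquantile of uncorrected CPE intensities. A probe saturated in CPE on all arrays is given as a bound, and one saturated on a single array by its measured mean. The brightest probe over both channels represents a gene in counts per gene. All 20 member probes are named, from each other list up to 5 called genes with the largest ratios by size, and all genes of the family list. Other genes (Pappa, M6pr, Igf2bp1, Igf2bp2, H19, Dlk1, Phlda2) were named for their roles after their values were seen. Probe positions are on mm8, as the file headers give them, and no annotation of that build was used. Start windows come from RefSeq (GRCm38.p6). The limma test was tested on simulated data. The number of arrays limits the precision. The alternatives were median centring, no background correction, the scanner's ratio, array weights, other filters, a test against 2-fold, saturated spots left out, other rankings and each mouse left out. The members and lists were chosen with earlier results of these data known. Human samples were not analysed here. Figures were drawn with matplotlib 3.10.9.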

Additional observations from a re-analysis of the deposited data

How the results depend on the processing

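Of 143 member probe ratios recomputed under alternatives, 137 kept their call or lack of one, 4 gained a call and 2 lost it. With median centring 2 ratios that were not called, of Igfbp4 and Igfbp5, changed sign, and no called ratio did. Median centring moved the median of all tested probes from -0.041 to 0.091 and the share of calls that were higher from 41.1% to 67.0%. It left 8 member probes past the thresholds, with 2 lower rather than 4, since Igfbp6 (-0.91, adjusted p = 0.0385) and Igf1 at A_52_P536434 (-0.82, adjusted p = 0.0547) fell short while Igfbp3 (1.42) and Igfbp7 (1.50) passed. It gave 23 pathway genes higher and 7 lower. The cause was not tested. The scanner's ratio called 6761 probes in all, against 4462, and Igfbp3 (1.12) passed. A test against a 2-fold change, which is stricter by construction, called 1414 probes, 5 member probes, 2 of them lower, and 4 pathway genes, 1 higher and 3 lower. With each mouse left out in turn, 4037 to 5315 probes, 8 to 9 member probes (4 to 5 higher, 4 lower) and 23 to 28 pathway genes (9 to 14 higher, 11 to 14 lower) were called, and without mouse 3 Igfbp3 gained its call (1.00). The high class kept 8 probes in each case. The deposited table gave 7, as the saturated Igf2 probe could not be ranked there. The median SD of member levels between mice, 0.43, became 1.42 with median-centred intensities and 0.28 for ratios. Over all probes the medians in these settings were 0.34, 1.09 and 0.28. Each ratio pairs CPE with the reference on the same array, and with only 1 group of mice no further pairing was possible. Scanner saturation limits Igf2, and low signal limits the dim probes of Igf1r and Igfbp3.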
